A study of Rattus norvegicus with 2 samples.

Results

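Deadenylation, decapping and RNA decay genes encode the proteins that shorten and remove a messenger RNA's poly(A) tail, take off its cap and digest its body. They were taken as all rows of the deposited gene table whose symbol belongs to the poly(A)-binding, CCR4-NOT, PAN2-PAN3, PARN, argonaute, TNRC6, decapping, LSm, XRN, exosome or UPF-SMG families. Rows were matched by name only, and the families and steps were chosen with earlier results of these data known. The match gave 75 of 21224 rows, with 73 distinct symbols. The study used E18 rat cortical neurons and set a knockdown of Ythdf3 by small interfering RNA (siYthdf3) against neurons labelled siNC, read here as the control. With 1 library in each group, the differences below have no replicate check and no test was made between the groups. Depth was 15392218 assigned reads for siNC and 22586543 for siYthdf3. The labels name no further treatment, strain or age in culture.

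Decay of most messenger RNAs begins at the poly(A) tail. PAN2-PAN3 and then CCR4-NOT shorten the tail, after which the LSm1-7 ring and PATL1 bind the shortened end and help DCP2 to remove the cap. The body is then digested from the 5′ end by XRN1 or from the 3′ end by the exosome. Argonaute proteins loaded with microRNAs recruit the deadenylases through TNRC6 proteins, and the UPF and SMG proteins direct messages with premature stop codons into decay. YTHDF proteins, which bind the m6A mark on messenger RNA, are linked to this machinery, since YTHDF2 is known to recruit CCR4-NOT through CNOT1.

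The targeted gene was checked before the decay genes. Ythdf3 was at 9.38 FPKM (fragments scaled to gene length and library depth) in siNC and 6.93 FPKM in siYthdf3. The FPKM ratio was 0.739, with a counting interval of 0.675 to 0.809. Ratios are siYthdf3 over siNC throughout, and the 95% interval beside a gene's ratio is exact and covers counting error only. Ythdf2 had a ratio of 0.939 (interval 0.846 to 1.04) and Ythdf1 of 0.993 (interval 0.875 to 1.13).

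Across the decay genes the differences were small, and they differed in direction between the steps. The microRNA silencing genes were higher in siYthdf3, with 6 of 7 at least 1.2-fold up (all genes: 12.4%). The medians of the LSm, poly(A)-binding and exosome genes lay below 0. At least 1.2-fold lower were 5 of 12, 1 of 2 and 2 of 10 of them (all genes: 15.4%), the exosome count being near that share. The medians of the CCR4-NOT, decapping and nonsense-mediated decay genes lay close to 0. Differences are given as log2 of siYthdf3 over siNC after adding 0.5 FPKM to each value, which understates those of weakly expressed genes. Of the 75 rows, 65 had a mean of at least 1 FPKM and are called measured below, resting on 129 to 20541 reads over both libraries. Their median was -0.06, and that of all 13172 genes that passed the same filter was -0.01, with quartiles of -0.17 and 0.14.

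At least 1.2-fold higher were 7 of the 65 measured genes (all genes: 12.4%), and 12 were at least 1.2-fold lower (all genes: 15.4%). As a share of the measured members these counts come to 10.8% and 18.5%, near the background. No member was 1.5-fold higher (all genes: 2.41%) and 2 were 1.5-fold lower (all genes: 3.95%). None was 2-fold apart in either direction, where 0.706% of all genes were higher and 0.896% lower. Intervals lay above 1 for 15 members (all genes: 20%) and below 1 for 21 (all genes: 22.2%). After rescaling the values to TPM, 11 members were 1.2-fold higher and 9 lower, beside 17.9% and 13.2% of all genes. With the table's trend over gene length removed, 4 were higher and 10 lower, beside 13.0% and 13.0% of all genes.

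**Figure D1:**
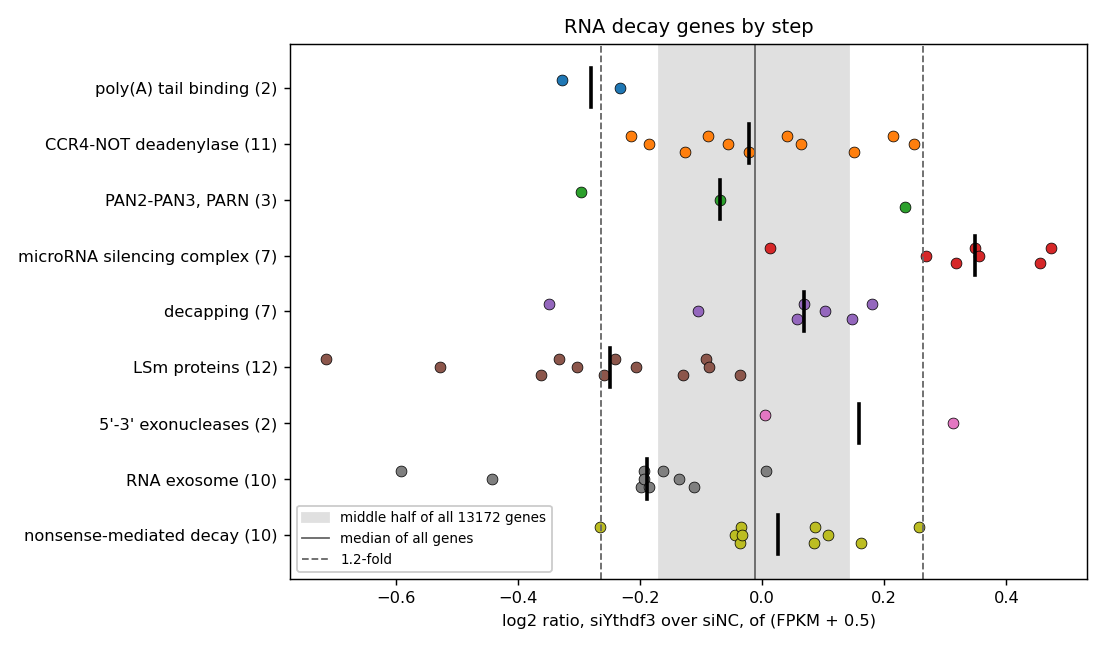
Each point is 1 measured gene, placed by its log2 ratio of siYthdf3 over siNC with 0.5 FPKM added (x axis) and by decay step (y axis, number of measured genes in brackets); black bars are step medians, the grey band spans the quartiles of all genes and dashed lines mark 1.2-fold. The microRNA silencing genes lie to the right (median 0.35), the LSm genes (median -0.25) and exosome genes (median -0.19) to the left, and the CCR4-NOT genes spread around 0.

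Markers of cell types differed between the libraries as well, and the share of each cell type and the RNA per cell cannot be told apart in bulk RNA. The counts of these lists use the 1.2-fold rule and are read against 12.4% of all genes higher and 15.4% lower. Pan-neuronal markers were all measured and summed to 1823 FPKM in siNC and 2113 FPKM in siYthdf3, with 4 of 12 at least 1.2-fold higher and 0 lower. All 14 cell cycle genes were lower, with sums of 428 FPKM and 220 FPKM. Of 9 radial glia and progenitor markers 5 were lower, with sums of 2090 FPKM and 1427 FPKM. Astrocyte markers summed to 120 FPKM and 194 FPKM, with 3 of 7 higher and 2 lower. Oligodendrocyte lineage markers summed to 31.1 FPKM and 18.7 FPKM, and 5 of the 6 measured ones were lower. Microglia markers summed to 7.61 FPKM and 3.68 FPKM, with 1 of the 3 measured ones higher and 2 lower, and the 5 endothelial markers to 0.949 FPKM and 0.686 FPKM. Some counted markers reached 1 FPKM in 1 library only. These were Eomes, Sox10 and Tyrobp, counted as lower, in siNC, and P2ry12, the microglia marker counted as higher, in siYthdf3. The intervals of P2ry12 (0.987 to 2.15) and Sox10 (0.471 to 1.02) include 1, and Tyrobp held 27 and 8 reads. No marker of these lists was at 0 in both libraries. These values stand beside those of the silencing, LSm, poly(A)-binding and exosome genes described next, and the part of cell composition in them was not tested.

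Upstream sequences are shown for 6 genes at least 1.2-fold apart. These are the argonaute genes Ago3 and Ago4 of 1 cluster and Xrn1, which were higher, and Lsm3, Lsm6 and Exosc8, which were lower, so that both directions can be compared. The sequences come from RefSeq on the GRCr8 build, matched by symbol for 52 of 64 measured symbols. Each holds 120 bases of the gene's own strand and ends 20 bases before the annotated start. The coordinates are those of GRCr8 and are not comparable with the deposited table's. Capitals mark matches on either strand to GGGCGG, the core of the GC box that SP1 binds, to CCAAT, the box that NF-Y binds, or to CCGGAAG, a motif of ETS factors.
Ago3 (chr5:143998758-143998877, minus strand): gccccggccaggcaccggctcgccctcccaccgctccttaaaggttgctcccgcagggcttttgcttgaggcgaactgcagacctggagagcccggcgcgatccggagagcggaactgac
Ago4 (chr5:144110423-144110542, minus strand): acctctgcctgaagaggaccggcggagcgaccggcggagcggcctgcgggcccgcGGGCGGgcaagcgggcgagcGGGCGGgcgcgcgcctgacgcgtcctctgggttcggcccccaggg
Lsm3 (chr4:125578045-125578164, plus strand): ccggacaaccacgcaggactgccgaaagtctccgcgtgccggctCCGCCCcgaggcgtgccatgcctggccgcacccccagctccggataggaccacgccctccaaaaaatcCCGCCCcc
Lsm6 (chr19:46002452-46002571, plus strand): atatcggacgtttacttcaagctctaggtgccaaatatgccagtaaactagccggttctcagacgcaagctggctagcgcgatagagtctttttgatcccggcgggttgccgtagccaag
Exosc8 (chr2:141087118-141087237, minus strand): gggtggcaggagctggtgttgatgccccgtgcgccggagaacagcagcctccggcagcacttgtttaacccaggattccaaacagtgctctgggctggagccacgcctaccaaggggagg
Xrn1 (chr8:105407645-105407764, plus strand): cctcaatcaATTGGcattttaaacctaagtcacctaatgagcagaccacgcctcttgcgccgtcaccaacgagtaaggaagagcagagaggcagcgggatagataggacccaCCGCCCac
GGGCGG stood in the windows of Ago4, Lsm3 and Xrn1, and CCAAT in that of Xrn1. The matches thus occurred in genes that were higher and in a gene that was lower. GGGCGG was in 22.9% of all 33469 windows of this length, CCAAT in 20.1% and CCGGAAG in 4.41%. Among the 49 measured members with a single window, 23 held GGGCGG, 13 CCAAT and 4 CCGGAAG. The shares over all windows were not limited to measured genes or to genes with a single window. The sets are therefore unlike, and the difference between them was not tested.

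The poly(A)-binding proteins coat the tail, stabilise the message and promote its translation. Pabpc1, the main cytoplasmic form, was the most abundant of the measured members in siNC, at 172 FPKM, and was at 146 FPKM in siYthdf3. Its log2 ratio of -0.23 was short of 1.2-fold, with a ratio of 0.851 (interval 0.827 to 0.874). Pabpc4 was lower, at 54.6 FPKM in siNC and 43.4 FPKM in siYthdf3, a log2 ratio of -0.33. Both measured genes of this step therefore lay below 0, and their summed level was 226 FPKM in siNC and 189 FPKM in siYthdf3. The other 5 rows of the family, Pabpc1l, Pabpc2, Pabpc4l, Pabpc5 and Pabpc6, held at most 22 reads in either library, and the copy row Pabpc4-ps1 at most 7. Pabpc2 had 0 reads in siNC, which allows up to 0.121 FPKM, and Pabpc1l had 0 in siYthdf3, which allows up to 0.0726 FPKM. Poly(A)-binding genes have near-identical copies, so the split of reads between them is uncertain.

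The CCR4-NOT complex, the main cytoplasmic deadenylase, differed little between the libraries. All 11 genes were measured and none was 1.2-fold apart (all genes: 12.4% higher and 15.4% lower). The median log2 ratio was -0.02, with a range of -0.22 to 0.25. The median was above 0 after rescaling to TPM, at 0.03, and 2 genes were then 1.2-fold higher. All genes then had a median of 0.04, with 17.9% at least 1.2-fold higher. Cnot1, the scaffold that holds the complex together, was at 23.5 FPKM in siNC and 24.5 FPKM in siYthdf3 (ratio 1.05, interval 0.997 to 1.10). The complex carries a pair of catalytic subunits, each encoded by a pair of paralogous genes. Of the CAF1-type nucleases, Cnot8 was at 48.8 FPKM in siNC and 46.9 FPKM in siYthdf3, and Cnot7 at 27.1 FPKM and 26.7 FPKM. Their summed level had a ratio of 0.970 (interval 0.923 to 1.02). Of the CCR4-type nucleases, Cnot6 was at 35.8 FPKM in siNC and 36.9 FPKM in siYthdf3. Its weaker paralogue Cnot6l was at 3.52 FPKM and 4.27 FPKM, the highest log2 ratio of the complex at 0.25 (ratio 1.21, interval 1.06 to 1.39). The FPKM ratio of Cnot6l is past 1.2-fold before 0.5 FPKM is added, and Cnot6l counted as higher with a pseudocount of 0.1 FPKM. Cnot11, which with Cnot10 forms a module at the N-terminal end of CNOT1, had the lowest, from 4.51 FPKM in siNC and 3.82 FPKM in siYthdf3. Its interval of 0.661 to 1.09 includes 1. The regulatory subunits of the NOT module, Cnot2 and Cnot3, lay on either side of 0 at 0.21 and -0.18.

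PAN2 and PAN3, which trim long tails, form 1 enzyme, and their genes differed in direction. The nuclease gene Pan2 was lower, at 6.93 FPKM in siNC and 5.56 FPKM in siYthdf3 (log2 ratio -0.30, interval of the ratio 0.708 to 0.907). The adaptor gene Pan3, which ties the nuclease to the tail, was at 5.15 FPKM in siNC and 6.15 FPKM in siYthdf3 (log2 ratio 0.23, interval 1.09 to 1.31). The intervals do not overlap. After rescaling to TPM Pan2 was no longer 1.2-fold lower and Pan3, at 0.29, was 1.2-fold higher. Pan3 was at 0.10 with the length trend removed. Parn, a deadenylase that also matures small noncoding RNAs, was at 24.0 FPKM in siNC and 22.8 FPKM in siYthdf3, and its interval of 0.885 to 1.03 includes 1.

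The microRNA silencing complex was the step that lay highest in siYthdf3. At least 1.2-fold higher were 6 of its 7 genes, beside 12.4% of all genes, none was lower, and the median log2 ratio was 0.35. The TNRC6 genes encode the scaffold proteins that bridge argonautes to the deadenylases, and all 3 had similar levels and similar ratios. Tnrc6a was at 14.7 FPKM in siNC and 18.8 FPKM in siYthdf3, a log2 ratio of 0.35. Tnrc6b was at 14.0 FPKM and 18.01 FPKM, also a log2 ratio of 0.35. Tnrc6c was at 12.4 FPKM and 15.6 FPKM, a log2 ratio of 0.32. The summed level of the TNRC6 genes was 41.0 FPKM in siNC and 52.4 FPKM in siYthdf3, a ratio of 1.28 (interval 1.24 to 1.32; intervals of sums use a normal approximation). With the length trend removed Tnrc6a and Tnrc6c, at 0.21 and 0.24, were short of 1.2-fold.

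Argonaute proteins hold the microRNA, and among the 4 genes the less abundant ones had the higher ratios. Ago1 was the most abundant, at 13.6 FPKM in siNC and 13.7 FPKM in siYthdf3, with a ratio of 1.01 (interval 0.947 to 1.08). Ago2, the argonaute that can cut its target, was higher, at 6.76 FPKM in siNC and 8.24 FPKM in siYthdf3 (ratio 1.22, interval 1.07 to 1.39). Its log2 ratio of 0.27 was just past 1.2-fold, and it was short of it with a pseudocount of 1 FPKM. Ago1 lay below 0 with the length trend removed. Ago4 was higher, at 2.36 FPKM in siNC and 3.47 FPKM in siYthdf3, from 139 and 300 reads (ratio 1.47, interval 1.199 to 1.81). Ago3 was higher as well, at 1.28 FPKM and 1.94 FPKM, from 120 and 267 reads (ratio 1.52, interval 1.22 to 1.90). On the log2 scale these were 0.47 and 0.46, at percentiles 96.1 and 95.7 of all genes. The interval of Ago1 lies below those of Ago3 and Ago4. The summed argonaute level was 24.0 FPKM in siNC and 27.4 FPKM in siYthdf3, a ratio of 1.14 (interval 1.08 to 1.21).

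Ago3, Ago1 and Ago4 are neighbours on the minus strand of chromosome 5 in the deposited table, whose coordinates come without a named genome build. Ago3 (ENSRNOG00000034269) spans 138639569 to 138714230, Ago1 (ENSRNOG00000055915) spans 138722111 to 138773546 and Ago4 (ENSRNOG00000025596) spans 138783069 to 138825632. The gaps are 7880 and 9522 bases, with 0 other rows inside them. The outer genes of this cluster were thus higher, while the gene between them had the same level in both libraries within counting error.

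**Figure D2:**
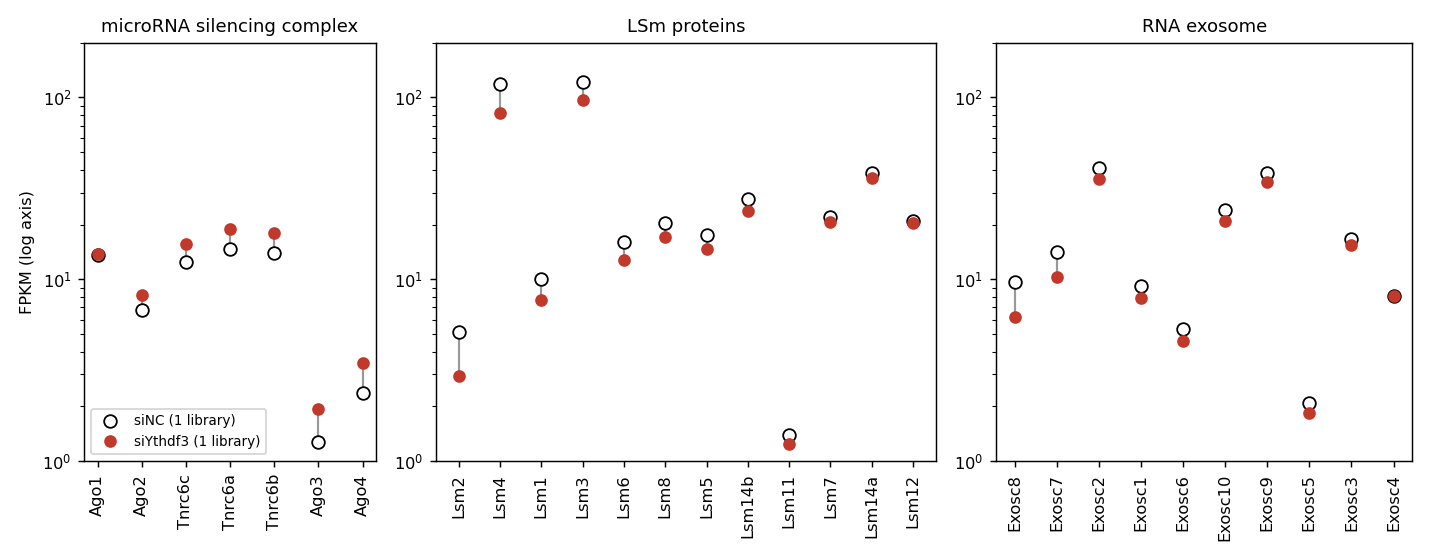
Level of each measured gene in FPKM (y axis, log scale) in the siNC library (open circles) and the siYthdf3 library (filled circles), for the microRNA silencing, LSm and exosome genes, ordered by log2 ratio within each step; there is 1 library per group and thus no error bar. Filled circles lie above open ones for 6 of 7 silencing genes and overlap for Ago1 (13.6 and 13.7 FPKM), and they lie below for all 12 LSm genes (11 after rescaling to TPM, where Lsm12 is above) and for 9 of 10 exosome genes.

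Decapping commits a message to decay. Of its 7 measured genes 5 had small values above 0, Edc4 was at -0.10 and Patl1 was 1.2-fold lower (all genes: 15.4%). Patl1 encodes the factor that bridges the LSm1-7 ring to the decapping enzyme, and it was at 23.5 FPKM in siNC and 18.3 FPKM in siYthdf3 (log2 ratio -0.35, interval of the ratio 0.727 to 0.838). The enzyme gene Dcp2 was at 5.07 FPKM in siNC and 5.81 FPKM in siYthdf3, with an interval of 0.992 to 1.32 that includes 1. Ddx6, the helicase of P-bodies that CNOT1 and PATL1 bind, was the most abundant of the step, at 74.1 FPKM in siNC and 82.1 FPKM in siYthdf3 (ratio 1.11, interval 1.06 to 1.16). The cofactors Dcp1a, Dcp1b, Edc3 and Edc4 had log2 ratios from -0.10 to 0.10, and their intervals include 1. The median of the step was 0.07. A second Ddx6 row, below the filter, held 0 and 3 reads. Dcps, the scavenger that hydrolyses the cap left after decay, was not analysed here.

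The LSm genes were the step that lay lowest among those with more than 2 measured genes. All 12 measured members were below 0, with a median of -0.25, and 5 were at least 1.2-fold lower, beside 15.4% of all genes. Lsm12 was above 0 after rescaling to TPM and with the length trend removed, and the other 11 stayed below 0 in both. The LSm proteins form rings of 7 that bind the ends of RNAs. Lsm2 to Lsm7 sit in a cytoplasmic ring, completed by Lsm1 and acting in decapping, and in a nuclear ring, completed by Lsm8 and bound to the U6 spliceosomal RNA.

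All 5 genes that were 1.2-fold lower encode ring subunits. Lsm2 (chromosome 20, 3843466 to 3847266, minus strand) had the lowest ratio of all measured decay genes, from 5.15 FPKM in siNC and 2.94 FPKM in siYthdf3. The log2 ratio was -0.71 and the FPKM ratio 0.572 (interval 0.430 to 0.759), on 112 and 94 reads. Lsm4 (chromosome 16, 18755484 to 18760926, minus strand) was at 119 FPKM in siNC and 82.5 FPKM in siYthdf3, a log2 ratio of -0.53 (interval of the ratio 0.648 to 0.740). Lsm3 was as abundant, at 122 FPKM in siNC and 97.0 FPKM in siYthdf3, a log2 ratio of -0.33. Lsm6 was at 16.0 FPKM and 12.8 FPKM, a log2 ratio of -0.30. Of the subunits that set the ring's place, Lsm1 was at 10.1 FPKM in siNC and 7.71 FPKM in siYthdf3 (ratio 0.767, interval 0.647 to 0.910). Lsm8 was at 20.5 FPKM and 17.1 FPKM (ratio 0.832, interval 0.762 to 0.908), so the cytoplasmic and the nuclear subunit overlapped in their intervals. The FPKM ratio of Lsm8 is just past 1.2-fold before 0.5 FPKM is added, and Lsm8 counted as lower with a pseudocount of 0.1 FPKM. Lsm5 and Lsm7 were at -0.24 and -0.09. Summed over Lsm1 to Lsm8 the level was 333 FPKM in siNC and 255 FPKM in siYthdf3, a ratio of 0.768 (interval 0.739 to 0.798).

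The LSm genes outside these rings had a median closer to 0, at -0.11 over 4 measured genes, beside -0.32 for Lsm1 to Lsm8. Lsm14a and Lsm14b, whose proteins repress translation in P-bodies, were at -0.09 and -0.21. The interval of Lsm14b, 0.799 to 0.935, lay below 1, and its log2 ratio was lower than that of the ring gene Lsm7, at -0.09. Lsm11, of the U7 particle that processes histone messages, was at -0.13, and Lsm12 was at -0.04 from 20.9 FPKM in siNC and 20.3 FPKM in siYthdf3. Lsm10, the U7 partner of Lsm11, was below the filter on 42 and 73 reads. A second row of Lsm5, below the filter, held 0 and 5 reads. Lsm6l1, a copy of Lsm6, was at 16.6 FPKM in siNC and 13.0 FPKM in siYthdf3, a log2 ratio of -0.34. With reads shared between such copies the values of Lsm6 and Lsm6l1 are uncertain. Rescaled to TPM, Lsm6 was short of 1.2-fold. With the length trend removed Lsm3, at -0.20, and Lsm6l1, at -0.21, were also short of it, while Lsm2, Lsm4, Lsm1 and Lsm6 were still past it.

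The genes of the exonucleases that digest RNA from the 5′ end differed from each other. Xrn1, the cytoplasmic enzyme, was higher, at 10.6 FPKM in siNC and 13.3 FPKM in siYthdf3 (log2 ratio 0.31, interval of the ratio 1.16 to 1.36). Xrn2, its nuclear relative, which ends transcription, was at 67.0 FPKM in siNC and 67.3 FPKM in siYthdf3 (ratio 1.00, interval 0.961 to 1.05). The intervals do not overlap. Xrn1 was at 0.25 with the length trend removed, just short of 1.2-fold.

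The exosome degrades RNA from the 3′ end in the nucleus and the cytoplasm. Its 10 genes had a median of -0.19, with 9 below 0 and Exosc4 at 0.01 (8.05 FPKM in siNC and 8.09 FPKM in siYthdf3), and 2 were at least 1.2-fold lower beside 15.4% of all genes. Both of these encode subunits of the ring of 6 proteins that forms the barrel. Exosc8 (chromosome 2, 138930405 to 138936922, minus strand) was at 9.61 FPKM in siNC and 6.21 FPKM in siYthdf3, from 349 and 331 reads (log2 ratio -0.59, interval of the ratio 0.554 to 0.753). Exosc7 was at 14.1 FPKM in siNC and 10.3 FPKM in siYthdf3 (log2 ratio -0.44, interval 0.638 to 0.829). The remaining ring genes Exosc4, Exosc5, Exosc6 and Exosc9 lay between -0.19 and 0.01, and of these the interval of Exosc9, 0.824 to 0.967, lay below 1. The cap genes Exosc1, Exosc2 and Exosc3, whose proteins guide RNA into the barrel, lay between -0.20 and -0.11. Exosc10, the nuclear catalytic subunit, was at 23.9 FPKM in siNC and 21.0 FPKM in siYthdf3 (ratio 0.877, interval 0.817 to 0.942). Intervals of 5 of the 10 genes lay below 1 (all genes: 22.2%) and of 0 above it (all genes: 20%). With the length trend removed the median was -0.12.

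**Figure D3:**
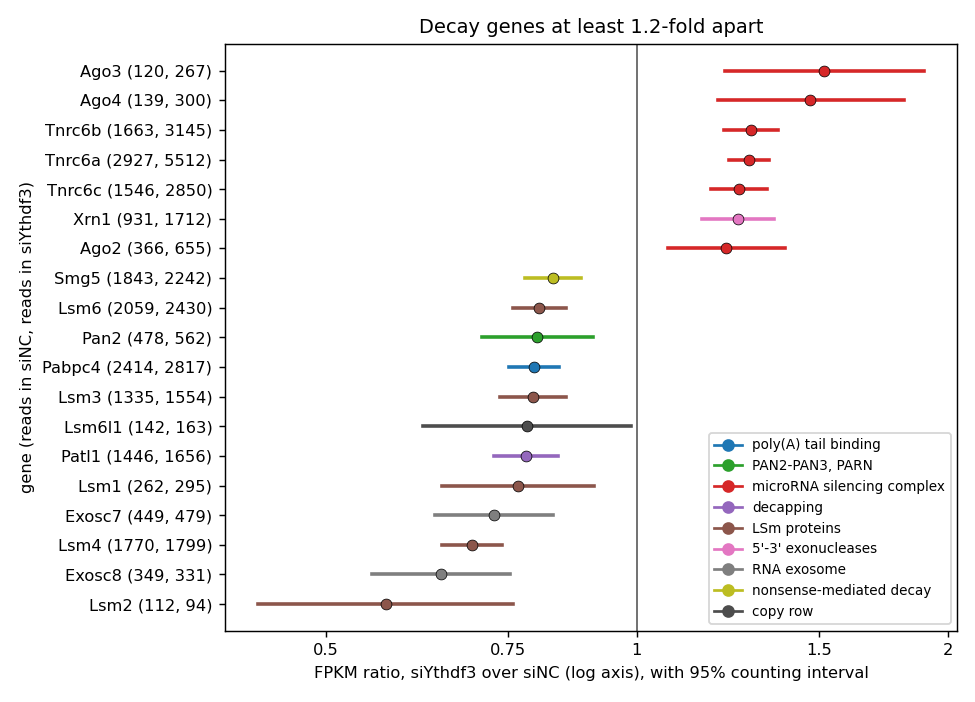
FPKM ratio of siYthdf3 over siNC (x axis, log scale, points) with its exact 95% counting interval (lines) for the 19 measured rows at least 1.2-fold apart, coloured by step, with reads in siNC and in siYthdf3 beside each name. The 7 higher genes are the silencing genes other than Ago1, and Xrn1; the lowest ratio is that of Lsm2 at 0.572, whose interval is among the widest.

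Nonsense-mediated decay genes lay on both sides of 0. Of 10 genes 5 were above and 5 below, with a median of 0.03, and after rescaling to TPM 9 were above. That rescaling moved the median of all genes as well, from -0.01 to 0.04. Smg5, which helps to bring decay enzymes to the target, was the 1 gene past 1.2-fold and was lower (all genes: 12.4% higher and 15.4% lower). Smg5 was at 27.3 FPKM in siNC and 22.6 FPKM in siYthdf3 (log2 ratio -0.27, interval of the ratio 0.779 to 0.882). It was short of 1.2-fold with a pseudocount of 1 FPKM, after rescaling to TPM and after centring. Smg1, the kinase that phosphorylates UPF1, was at 20.8 FPKM in siNC and 24.96 FPKM in siYthdf3 (log2 ratio 0.26, interval 1.15 to 1.25), just short of 1.2-fold. It passed 1.2-fold after rescaling to TPM (0.31) and after centring (0.27), and was at 0.12 with the length trend removed. The helicase Upf1 was at 29.9 FPKM in siNC and 29.2 FPKM in siYthdf3 (interval 0.919 to 1.04). The endonuclease Smg6 was at 12.5 FPKM and 13.3 FPKM (interval 0.991 to 1.14). Upf2, which links UPF1 to the UPF3 proteins, was at 0.16. Upf3b was among the most abundant decay genes, at 139 FPKM in siNC, below Pabpc1, and 148 FPKM in siYthdf3, above it. Its paralogue Upf3a was at 78.2 FPKM and 76.2 FPKM. The copy row Smg5l1 was below the filter.

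Decay genes longer than the median had a higher median log2 ratio than shorter ones, and so did all genes. Bin by bin the trend over all genes was not without breaks, and the shortest bin was at 0.03. Across all genes the median was -0.14 in the length bin around 670 bases and 0.14 in the bin around 10061 bases. Measured decay genes at or above the median length of all genes, 2917 bases, had a median of 0.07 over 36 genes, with 7 higher and 4 lower by 1.2-fold. All genes of that class had a median of 0.03, with 12.5% higher and 9.7% lower. The 29 shorter ones had a median of -0.18, with 0 higher and 8 lower. All genes of the shorter class had a median of -0.06, with 12.3% higher and 21% lower. The silencing genes are long, with a median of 7567 bases, and all genes of matching length bins had a median of 0.07. Their own median was 0.28 with that trend removed, against 0.35 before. The LSm genes, with a median of 1850 bases, went from -0.25 to -0.19, and the exosome genes from -0.19 to -0.12. Lsm6, with a length of 8378 bases in the table, lay at -0.44 after this step, below its value before it. The part of gene length in each step's values was not tested further.

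**Figure D4:**
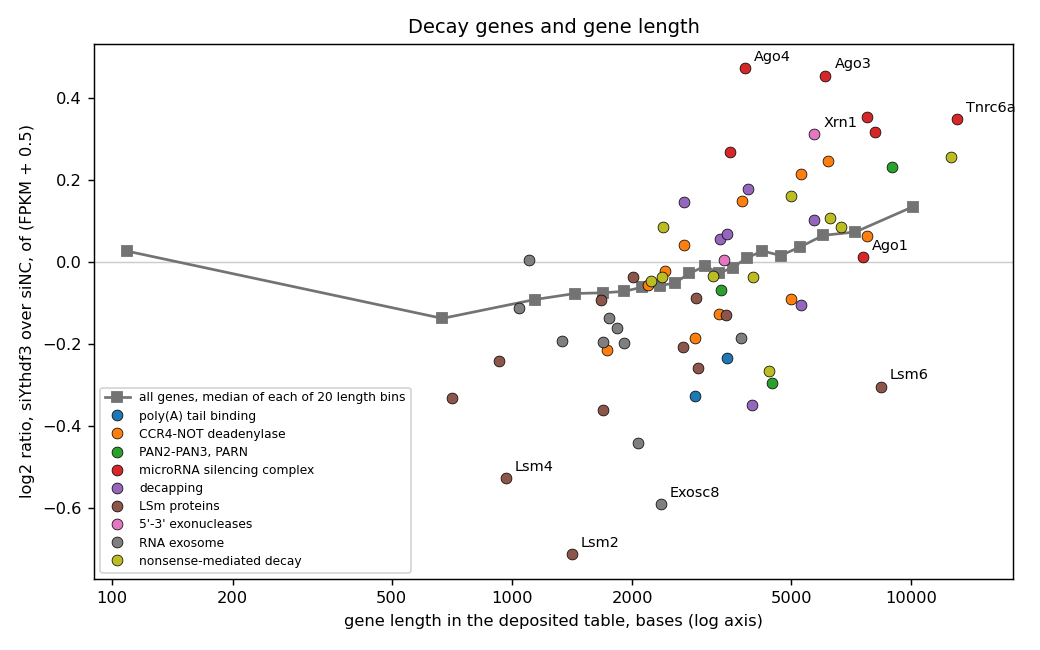
Log2 ratio of siYthdf3 over siNC with 0.5 FPKM added (y axis) against gene length in bases (x axis, log scale); coloured points are measured decay genes by step, grey squares the medians of all genes in 20 length bins. Silencing genes other than Ago1 lie above the grey line, and Lsm2, Lsm4, Lsm6 and Exosc8 well below it.

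Further genes of RNA decay outside these families, listed in 5 groups, had a median log2 ratio of 0.00 over 56 measured genes, with 1 at least 1.2-fold higher and 9 lower. The shares over all genes, which the counts of these groups are read against, were 12.4% higher and 15.4% lower. Of 17 adaptors that bring deadenylases to their targets, Zfp36l2, which binds AU-rich elements, was 1.5-fold lower, at 3.29 FPKM in siNC and 2.01 FPKM in siYthdf3. The polyadenylation element-binding gene Cpeb3, named after its value was seen, was the 1 gene higher, at 0.42. Of 14 catalytic subunits and cofactors of the exosome 0 were higher and 2 lower, Mphosph6 at -0.30 and Skic8 at -0.27. Of 6 minor decapping factors Pnrc2, which links UPF1 to decapping, was at 101 FPKM in siNC and 72.8 FPKM in siYthdf3, and Dxo was at -0.44 on 68 and 69 reads. Of 9 exon junction complex and release factor genes 4 were lower and 0 higher, with Magohb at -0.43 and Eif4a3 at -0.32. None of 10 tailing enzymes and minor deadenylases was 1.2-fold apart, with Eri1 at -0.19 and Tent4a at -0.15 the farthest from 0.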

How the data were processed

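Total RNA, taken up in TRIzol per the labels' protocols, was made into libraries with a kit that tags cDNA with identifiers of 12 random bases, sequenced as paired reads of 150 bases. Tools named in the submitters' processing notes, with no role given, are edgeR 3.40.2, StringTie 2.1.4, Subread 1.5.1 with featureCounts, fastp 0.23.2 and STAR 2.7.6a. Whether identifiers or strand were used, and the build and annotation, is not given in the sources. Values of overlapping, antisense and near-identical genes are therefore uncertain.

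The authors deposited FPKM per gene and library beside each gene's length, per the file headers. Multiplying FPKM by length gave whole reads, within 0.05 of a read, for 100% of values, and hence the depth of each library. A value of 0 allows up to 3 reads, which for 1 kilobase is 0.195 FPKM in siNC or 0.133 FPKM in siYthdf3.

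Log2 ratios used a pseudocount of 0.5 FPKM, and genes averaging 1 FPKM or more were measured. Just outside that filter lay Smg5l1 and Lsm10, with means of 0.745 and 0.713 FPKM, and just inside Lsm11 with 1.32 FPKM. The rule of size was 1.2-fold. Intervals convert Clopper-Pearson limits on a gene's read share in siYthdf3 to a ratio, and would be too narrow if several reads stem from 1 molecule. The members, steps and lists were chosen with earlier results of these data known. Values are given for the highest and lowest gene of each step, every gene 1.2-fold apart and 18 enzymes and key factors, and other members were added after their values were seen. The value of 1 member is not reported here. In the further lists every gene 1.5-fold apart, or otherwise the farthest 2, was named. Markers and further genes on several rows used the row with the highest mean. The calculation was checked on simulated data. Python 3.11.15, numpy 2.4.6, pandas 2.3.3, scipy 1.17.1 and matplotlib 3.10.9 were used.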

Additional observations from a re-analysis of the deposited data

How the results depend on the processing

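The number of decay genes at least 1.2-fold higher was 7 of 65 (all genes: 12.4%). It was 11 of 75 without a filter on low values (14.4%), 11 after rescaling to TPM (17.9%) and 4 with the length trend removed (13.0%). It was 0 under a 1.5-fold rule (2.41%), 0 under a 2-fold rule (0.706%), and 15 when intervals excluding 1 were counted (20%). The number lower, 12 (all genes: 15.4%), was 2 (3.95%), 0 (0.896%) and 21 (22.2%) under the last 3 rules. Between 11 and 13 were lower in the other settings (all genes: 13.6% to 17.1%). The exceptions were TPM (9, all genes 13.2%) and the length trend removed (10, all genes 13.0%). The poly(A)-binding median, -0.28, was -0.10 without a filter, which adds 5 rows of few reads. Of 90 medians recomputed by step and setting, 89 moved by less than the median distance from a gene's value in that step to its interval's bound. Of 337 values of named genes 330 moved by less than their own and 0 of those past 1.2-fold changed sign. Settings that change only the filter leave each gene's value as it was, so many of the 337 could not move. Centring shifts every value by the same small amount, so these tallies are no measure of robustness. The silencing median ranged from 0.28 to 0.41, that of the LSm genes from -0.26 to -0.19 and that of the exosome genes from -0.19 to -0.12. The median of all genes was 0.04 after rescaling to TPM, against -0.01. Leaving out a replicate was not possible with 1 library per group. No paired analysis was possible because each group has 1 library. Depth limits several members, among them Ago3, Ago4, Lsm2 and Exosc5, which rest on 56 to 300 reads per library. Lsm11, Dcp1b, Exosc6, Cnot11 and Lsm6l1 are limited as well, on 74 to 163 reads per library.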
